A study of Mus musculus with 4 samples.

Results

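The *Igf2r*-*Airn* domain is a cluster of imprinted genes on mouse chromosome 17 and is represented here by 4 genes: *Igf2r*, *Airn*, *Slc22a2* and *Slc22a3*. The 4 genes were chosen by symbol, all 4 symbols were found in the annotation, and they are 4 of the 37310 genes in the table. The RNA came from HATX cells, a mouse embryonic stem cell (mESC) line whose *Xist* transgene is inducible with doxycycline. The question here is whether genes of the domain differed between wild-type (WT) cells and cells labelled as a knockout (KO) of *Spen*, which encodes an RNA-binding co-repressor that *Xist* uses to silence the X chromosome. There were 2 WT libraries and 2 libraries of *Spen* KO clone 2. Both groups carry the transgene, have a mixed genomic background according to the labels, and were grown on gelatin in medium with serum and LIF, with no treatment stated. The study describes these lines as haploid. The parental origin of the genome copy is not given in the sources used here, nor is a statement that the libraries of a group came from separate cultures. The p-values therefore measure only the spread between these libraries, and the KO-labelled group is 1 clone, so an effect of the genotype and a property of the clone cannot be told apart.

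*Igf2r* encodes the cation-independent mannose 6-phosphate receptor, which carries newly made lysosomal enzymes from the Golgi to endosomes and removes the growth factor IGF2 from the cell surface for degradation. In most differentiated mouse tissues it is expressed from the maternal copy, while undifferentiated ES cells express both copies. *Airn* is a long noncoding RNA transcribed from the paternal copy, antisense to *Igf2r*, from a promoter inside an *Igf2r* intron. The CpG island at this promoter is methylated in the oocyte and acts as the imprint control element of the domain. *Airn* is needed to silence the paternal copy of *Igf2r* and, in the placenta, those of *Slc22a2* and *Slc22a3*, which encode organic cation transporters.

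The members span 440 kb on build mm9. *Igf2r* (ENSMUSG00000023830.7, minus strand, chr17:12875272-12962530) is protein coding and has 48 exons in its longest transcript. *Airn* (ENSMUSG00000078247.3, plus strand, chr17:12934177-13052988) is annotated as a lincRNA over 119 kb and starts in intron 2 of *Igf2r*, 28.4 kb from the *Igf2r* start. *Slc22a2* (ENSMUSG00000040966.8, plus strand, chr17:12777055-12821331) and *Slc22a3* (ENSMUSG00000023828.2, minus strand, chr17:12612838-12700570) are protein coding and lie on the other side of *Igf2r*. The spans of *Igf2r* and *Airn* overlap by 28354 bases, but their annotated exons share 0 bases. Exon counts therefore separate the spliced RNAs of the 2 genes. Unspliced *Airn* RNA would cross the *Igf2r* exons before the intron where *Airn* starts, and if counting ignored strand, which is not stated, its reads there would be added to *Igf2r*. The counted *Airn* exons cover 3583 bases, so unspliced *Airn* RNA outside them is not counted as *Airn*.

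The 250 bases before each member's start are shown so that the expressed member, *Igf2r*, can be set beside the 3 members near 0 counts. All are from the NCBIM37 (mm9) sequence, written 5′ to 3′ on the gene's own strand, with CpG dinucleotides in capitals.
*Igf2r*, chr17:12962531-12962780, minus strand: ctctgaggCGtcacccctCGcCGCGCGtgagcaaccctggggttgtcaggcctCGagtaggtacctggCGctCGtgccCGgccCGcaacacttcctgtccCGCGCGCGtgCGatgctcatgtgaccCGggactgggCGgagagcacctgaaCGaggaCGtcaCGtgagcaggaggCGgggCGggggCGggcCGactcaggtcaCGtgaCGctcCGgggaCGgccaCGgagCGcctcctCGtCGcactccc
*Airn*, chr17:12933927-12934176, plus strand: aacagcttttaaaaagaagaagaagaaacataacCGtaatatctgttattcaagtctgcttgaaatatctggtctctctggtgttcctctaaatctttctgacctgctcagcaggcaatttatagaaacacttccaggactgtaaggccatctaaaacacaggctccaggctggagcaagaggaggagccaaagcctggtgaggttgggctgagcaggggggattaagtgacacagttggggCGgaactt
*Slc22a2*, chr17:12776805-12777054, plus strand: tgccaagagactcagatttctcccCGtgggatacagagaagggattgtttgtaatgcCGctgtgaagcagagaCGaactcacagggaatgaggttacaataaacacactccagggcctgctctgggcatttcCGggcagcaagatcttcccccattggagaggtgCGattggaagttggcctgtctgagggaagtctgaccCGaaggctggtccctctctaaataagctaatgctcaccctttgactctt
*Slc22a3*, chr17:12700571-12700820, minus strand: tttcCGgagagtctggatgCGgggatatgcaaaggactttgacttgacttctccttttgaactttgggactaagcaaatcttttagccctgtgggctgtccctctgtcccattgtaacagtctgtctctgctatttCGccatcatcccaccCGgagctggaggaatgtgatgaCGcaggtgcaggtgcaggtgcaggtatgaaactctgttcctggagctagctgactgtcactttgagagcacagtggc
The *Igf2r* window holds 32 CpG dinucleotides at 71.6% G and C, and 5.34% of 23648 promoter windows of this length hold at least as many. The *Slc22a2* window holds 6, the *Slc22a3* window 5 and the *Airn* window 2, and at least as many are found in 59.7%, 64.1% and 83.7% of windows, respectively.

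The 250 bases before *Airn* end just short of its CpG island. Among 300-base windows of *Igf2r* intron 2, which is 8237 bases long, the window richest in CpG lies 421 to 720 bases after the *Airn* start. It is shown on the plus strand, the strand of *Airn*, with CpG dinucleotides in capitals.
*Igf2r* intron 2, chr17:12934598-12934897, plus strand: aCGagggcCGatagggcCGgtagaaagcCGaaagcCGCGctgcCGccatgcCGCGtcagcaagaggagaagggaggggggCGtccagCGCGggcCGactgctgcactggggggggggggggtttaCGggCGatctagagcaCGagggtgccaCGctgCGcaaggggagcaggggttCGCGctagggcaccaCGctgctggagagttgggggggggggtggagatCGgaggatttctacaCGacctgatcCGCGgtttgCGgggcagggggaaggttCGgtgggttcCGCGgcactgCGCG
This window holds 31 CpG dinucleotides at 69.7% G and C, against a median of 2 per window over the intron. DNA methylation was not measured in these libraries, so the sequence gives the position of the island and not its state.

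**Figure D1:**
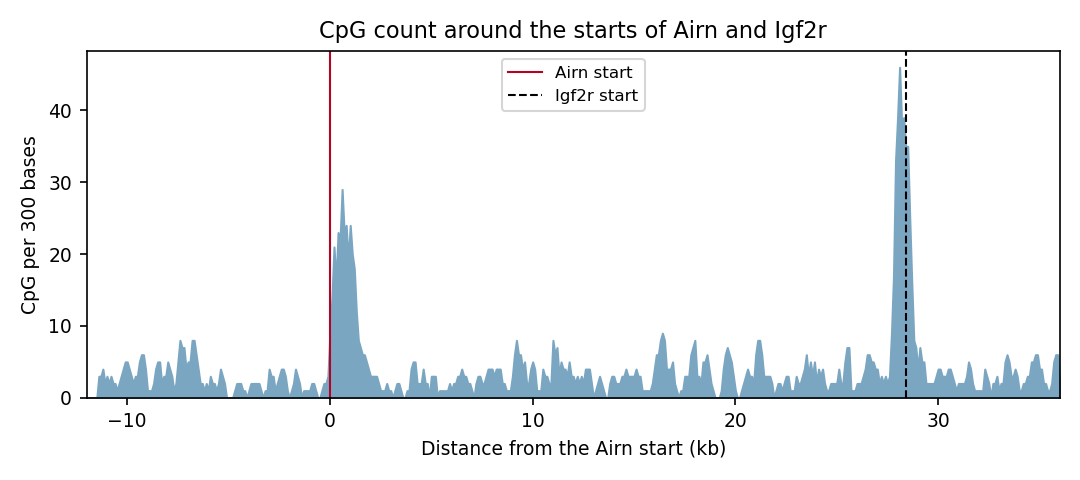
CpG dinucleotides per 300 bases (y axis) against distance from the *Airn* start in kb (x axis), with the *Airn* start as a solid line and the *Igf2r* start as a dashed line. The 2 peaks reach 29 CpG at 0.6 kb and 46 CpG at 28.1 kb from the *Airn* start.

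The libraries held 36667685 to 61908422 counts, and the 2 WT libraries were the shallower. *Spen*, the targeted gene, had 3716 and 3047 normalized counts in WT and 7797 and 6242 in the KO-labelled libraries, a log2 fold change of 1.05 ± 0.21 (SE, DESeq2 adjusted p = 7.7e-06). The counts of the targeted gene thus did not fall in the libraries labelled KO. The whole-gene count does not show which *Spen* exons were read. The study itself reports higher *Spen* mRNA after loss of the protein, and describes the KO cells as lacking most of the gene. Of 10 mESC markers, DESeq2 put 0 lower and 3 higher in the KO-labelled libraries with an adjusted p under 0.05 (none were lower by unadjusted p or in edgeR), with a summed level of 3020 to 3090 RPKM in WT and 3460 to 3510 RPKM in KO-labelled libraries. RPKM here is counts per kb of exon per 1000000 counts in the library. Over all 17710 genes tested, 15.8% were lower and 16.4% higher by this threshold. *Dppa5a* held the largest part of the mESC marker sum, with a mean of 1650 RPKM in WT and 2010 RPKM in the KO-labelled libraries. *Nanog* and *Pou5f1*, the next largest, were at 442 and 350 RPKM in WT and at 426 and 353 RPKM in the KO-labelled libraries. Of 6 primitive endoderm markers tested, 4 were lower and 0 higher (0 higher also by unadjusted p and in edgeR). Those not passing were *Gata6* (DESeq2 adjusted p = 0.827) and *Dab2* (0.0862). The whole list summed to 13.9 to 15.0 RPKM in WT against 5.33 to 5.53 RPKM. *Lama1* and *Col4a1* held most of this sum, with means of 7.4 and 4.31 RPKM in WT and 2.4 and 1.78 RPKM in the KO-labelled libraries. Trophoblast markers summed to 45.0 to 45.4 RPKM in WT against 33.0 to 34.7 RPKM, with 5 of 8 tested lower and 1 higher, and fibroblast markers to 3.24 to 3.69 against 5.35 to 5.94 RPKM, with 2 of 7 lower and 1 higher. The fibroblast sum rested on *Thy1*, and without it was 1.84 to 2.04 RPKM in WT against 1.02 to 1.04 RPKM. *Tpbpa* (spongiotrophoblast) and *Ttr* (visceral endoderm) were the members of these lists at 0 counts in every library, while *Eomes* and *Gata3* of the trophoblast list and *Gata4* and *Sox7* of the endoderm list were detected in all 4. Chromosomes also differed: the median log2 fold change was 0.0048 over all genes tested but -0.13 over the 866 tested on chromosome 17. Over genes with a mean of at least 50 normalized counts, whose medians are those removed below, it was -0.14 on chromosome 17 (648 genes) and ran from -0.35 on chromosome 10 to 0.38 on chromosome 19. The part of these differences in the results below was not tested, except where a value with the chromosome median removed is given.

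*Igf2r* was the only member expressed above the detection limit, and its level was slightly lower in the KO-labelled libraries. *Igf2r* had 3610 and 4380 raw counts in WT and 4480 and 5307 in the KO-labelled libraries. After scaling for depth these were 4786 and 4770 normalized counts in WT and 3901 and 4153 in the KO-labelled libraries. Both KO-labelled libraries lay below both WT libraries, as they did for 34.8% of the genes tested. Per exon length, the *Igf2r* level was 10.5 ± 0.113 RPKM in WT and 8.88 ± 0.288 RPKM in the KO-labelled libraries (SD, n = 2 each). Its mean of 9.69 RPKM was above that of 70.0% of the 16887 protein-coding genes with more than 3 counts in any library, whose median was 2.98 RPKM.

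The log2 fold change of *Igf2r* was -0.25 ± 0.08 (SE), with a 95% interval of -0.40 to -0.09, and its DESeq2 adjusted p was 0.0084. This is a difference of -15.7% (95% interval -24.3 to -6.08%). At an adjusted p under 0.05, 15.8% of all genes tested were lower, and *Igf2r* was among them. At the study's thresholds of a 2-fold change and an adjusted p under 0.001, which 4.51% of genes passed, *Igf2r* was not called. With the median of its chromosome removed, the log2 fold change was -0.11 and the adjusted p 0.334, and leaving out any 1 library gave -0.29 to -0.19 with an adjusted p of 0.0552 to 0.222. In bulk RNA, fewer cells that express *Igf2r* and less *Igf2r* RNA per cell cannot be told apart.

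*Airn* was at or near 0 throughout, with 1 raw count in WT replicate 1 and 0 in the other 3 libraries. The 1 count is a level of 0.00761 RPKM (95% Poisson interval 0.000193 to 0.0424), which is 1370-fold below *Igf2r* in the same library (interval 246 to 54100). In the 3 libraries at 0, the limit that a count of 0 allows is 3 counts, or 0.0135 to 0.0191 RPKM, so the *Airn* level was at least 554-fold to 672-fold lower than that of *Igf2r*. Levels are compared here per exon length, and all such limits cover counting error only.

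*Slc22a2*, a kidney and placenta transporter of organic cations, had 0 counts in all 4 libraries. The limits were 0.0225 to 0.0381 RPKM, at least 274-fold to 403-fold lower than the level of *Igf2r*. *Slc22a3*, a transporter of monoamines and other cations outside neurons, had 2 counts in WT replicate 1 and 0 in the others. The 2 counts are 0.0156 RPKM (95% Poisson interval 0.00189 to 0.0563), or 669-fold below *Igf2r* (interval 185 to 5530), and the limits in the libraries at 0 were at least 542-fold to 656-fold lower. *Airn*, *Slc22a2* and *Slc22a3* thus had no more than 3 counts in any library, and no fold change between the groups can be given for them. A difference between WT and KO-labelled cells was not detectable at this depth.

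Low counts in these files were mostly even. Of counts from 1 to 20, 64.0 to 66.5% were even, against 49.4 to 52.0% of counts from 1000 to 5000. If the 2 reads of a pair were each counted, which the sources used here do not state, the limit is 6 counts, and the *Airn* level in the libraries at 0 was at least 277-fold to 336-fold lower than that of *Igf2r*. The corresponding limits are 137-fold to 201-fold for *Slc22a2* and 271-fold to 328-fold for *Slc22a3*.

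Genes at this level are common in the table. No library held more than 3 counts for 41.5% of all genes, 24.5% of protein-coding genes and 22.7% of lincRNAs. Among protein-coding genes with at least 32 CpG in the 250 bases before the start, as *Igf2r* has, 34 of 1156 (2.94%) were at this level. Among those with at most 6, as *Slc22a2* and *Slc22a3* have, 4896 of 9898 (49.5%) were. These cut-offs are the members' own counts, and bases after the start were not counted. A part of CpG content in the levels of the members was not tested.

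*Plg* and *Mas1*, which lie beside the members, were also near 0. *Plg*, the liver gene for plasminogen, had 2 counts in each KO-labelled library and 0 in WT. *Mas1*, a G protein-coupled receptor gene whose span lies across the far end of *Airn* on the opposite strand, had 8 and 3 counts in WT and 0 and 2 in the KO-labelled libraries. Its exons share 0 bases with those of *Airn*. The plot of levels by gene shows *Igf2r* alone above 0.1 RPKM among the genes plotted.

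**Figure D2:**
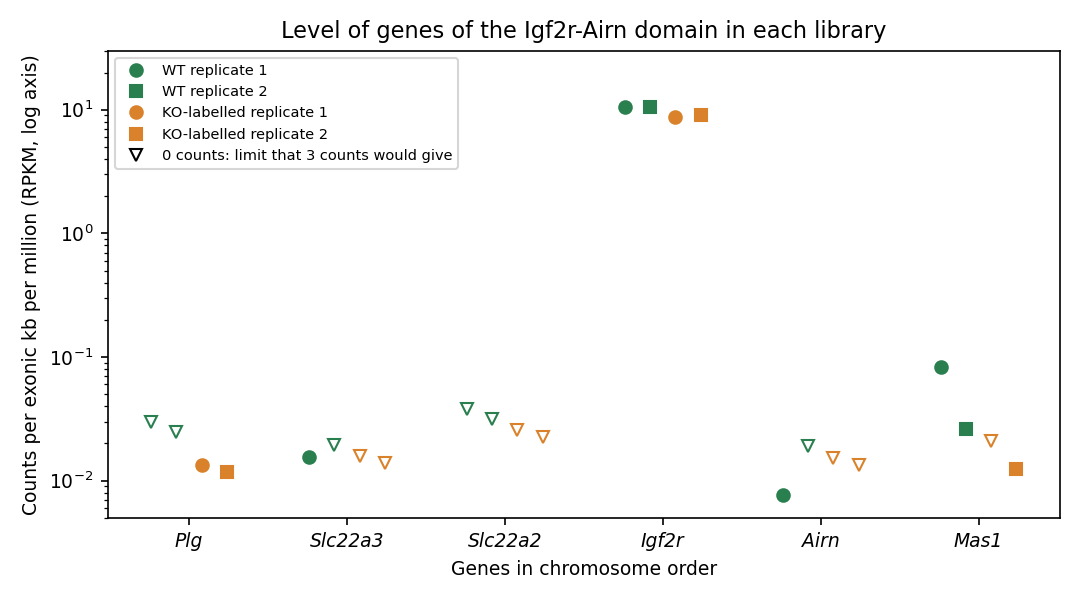
Level in RPKM (y axis, log scale) of the 4 members and of *Plg* and *Mas1* in each library, in chromosome order (x axis, not to scale). Filled points are measured levels and open triangles mark the limit that 3 counts would give where a library held 0; *Igf2r* lies at 8.675 to 10.59 RPKM and every other point lies below 0.1 RPKM.

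Farther out, fewer than 50% of the genes around the domain could be tested, and most of these did not pass. Within 1 Mb of a member there were 48 other genes, of which 23 had no more than 3 counts in any library and 16 could be tested. In DESeq2, 3 of the 16 (18.8%) were lower and 0 were higher by adjusted p, beside 15.8% lower and 16.4% higher over all genes and 18.7% lower and 6.7% higher among 866 tested genes of chromosome 17. By unadjusted p under 0.05, 7 were lower and 0 higher, and edgeR gave 7 lower and 0 higher. The shares of all genes by these other rules are not given here, so these counts have no like comparison. The 3 became 1 without WT replicate 2 or KO-labelled replicate 1. None of the 16 reached the 2-fold call. The median log2 fold change of the 16 was -0.21, beside -0.13 over the 866. With the chromosome median removed, 1 gene was lower and 2 were higher.

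*Sod2*, the mitochondrial superoxide dismutase, had 7822 and 8129 normalized counts in WT and 6202 and 6966 in the KO-labelled libraries, both below WT, as for 34.8% of genes tested. Its log2 fold change was -0.28 ± 0.08 (SE, adjusted p = 0.00294), close to that of *Igf2r*, and -0.14 with the chromosome median removed (adjusted p = 0.198). *Mllt4*, which encodes the junction protein afadin, lies at the far edge of the window and had 6507 and 6126 normalized counts in WT against 3981 and 4205. It fell by 0.63 on the log2 scale (SE 0.08, adjusted p = 7.88e-14) and was the gene still lower once the chromosome median was removed (-0.49, adjusted p = 1.18e-08). The third gene, *Gm16046*, had a log2 fold change of -1.05 ± 0.39 (SE, adjusted p = 0.0252), and its adjusted p was 0.0665 with the chromosome median removed. *Mllt4* and *Gm16046* lie more than 250 kb from the members and are named because they make up the count.

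The expressed genes nearest to the end of *Airn* did not pass the test. *Tcp1*, a subunit of the TCP-1 chaperonin ring, had 34620 and 31890 normalized counts in WT and 31590 and 33950 in the KO-labelled libraries, with overlapping groups and a log2 fold change of -0.02 (adjusted p = 0.87). *Mrpl18*, a mitochondrial ribosomal protein gene, had a log2 fold change of -0.05 (adjusted p = 0.725). Both signs turned positive with the chromosome median removed. *Acat2*, an acetyl-CoA acetyltransferase gene, was at -0.16 (adjusted p = 0.128), and its copy *Acat3*, which shares 24.3% of its exonic bases with *Tcp1* on the other strand, at 0.36 (adjusted p = 0.535). *Pnldc1*, which encodes an exonuclease that trims piRNAs, was at 0.22 (adjusted p = 0.224), and *Wtap*, a subunit of the RNA m6A methyltransferase, at 0.12 (adjusted p = 0.216). With the chromosome median removed these 2 were the higher genes, *Wtap* at 0.25 (adjusted p = 0.00268) and *Pnldc1* at 0.36 (adjusted p = 0.0343).

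The small nucleolar RNA *Snora20*, inside *Tcp1*, was at 0.21 (adjusted p = 0.695). On the other side, beyond *Plg*, the kinase gene *Map3k4* was at -0.25 (adjusted p = 0.102), *Agpat4*, an acyltransferase of phospholipid synthesis, at -0.35 (adjusted p = 0.0612), and *4732491K20Rik* at -0.54 (adjusted p = 0.602). In edgeR, *Map3k4* and *Agpat4* passed, at -0.27 (adjusted p = 0.0333) and -0.37 (adjusted p = 0.0176). *Map3k4* shares 55.4% of its exonic bases with a second annotated entry of that name, which held 0 counts.

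**Figure D3:**
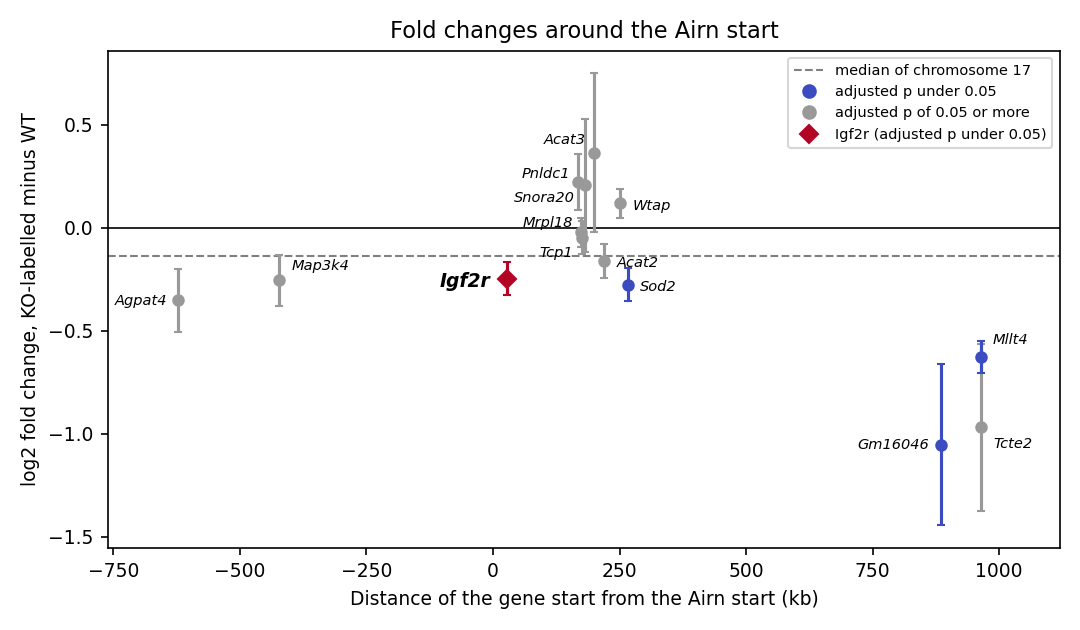
log2 fold change (y axis, KO-labelled minus WT) against the distance of each gene's start from the *Airn* start in kb (x axis), for *Igf2r* and for neighbours with a mean of at least 50 normalized counts. Bars are standard errors from DESeq2. *Igf2r* at -0.25 and *Sod2* at -0.28 lie below the dashed chromosome median of -0.14, and *Mllt4* lies farther below it at -0.63.

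The genes whose pattern over the 4 libraries was most like that of *Igf2r*, among 13306 genes, were *Itm2c*, *Ddhd1* and *Mrpl34*. The measure was the root mean square difference of centred log2(normalized count + 1), which was 0.0073, 0.0082 and 0.0089, respectively. These 3 genes lie on chromosomes 1, 14 and 8, and their log2 fold changes were -0.23, -0.24 and -0.26. With 4 libraries many genes share a pattern, so likeness is given as a description only.

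The other genes of mannose 6-phosphate sorting, the pathway of *Igf2r*, were all expressed and moved in both directions. By the adjusted p, 3 of 11 were lower and 4 higher, or 4 in all without any 1 library, beside 15.8% lower and 16.4% higher over all genes. Their median log2 fold change was 0.13 beside 0.0048. *M6pr*, the smaller cation-dependent receptor that shares the sorting work of *Igf2r*, had 9776 and 10020 normalized counts in WT and 10950 and 11670 in the KO-labelled libraries. Both KO-labelled libraries lay above both WT libraries, opposite to *Igf2r*, as they did for 35.3% of the genes tested. The *M6pr* level was 49.3 ± 1.51 RPKM in WT and 56.4 ± 1.86 RPKM in the KO-labelled libraries (SD, n = 2 each), so in RPKM it stood above the *Igf2r* level in every library. Its log2 fold change was 0.19 ± 0.07 (SE, adjusted p = 0.0238 in DESeq2 and 0.0533 in edgeR), and 0.13 with the chromosome median removed (adjusted p = 0.164).

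Of 3 genes that make the mannose 6-phosphate tag, *Gnptab* encodes the alpha and beta subunits of the phosphotransferase that starts it. *Gnptab* was lower with a log2 fold change of -0.43 (adjusted p = 1.86e-04), and at -0.09 with the chromosome median removed (adjusted p = 0.618). *Nagpa*, the uncovering enzyme that completes the tag, was lower at -0.53 (adjusted p = 3.26e-04, and 0.0778 with the chromosome median removed). *Gnptg*, the gamma subunit of the phosphotransferase, was at 0.18 (adjusted p = 0.379) and did not pass. Among genes of transport, the retromer subunit *Vps26a* was at -0.60 (adjusted p = 4.79e-10), *Vps35* at 0.28 (adjusted p = 0.00101, and 0.0607 with the chromosome median removed) and *Vps29* at 0.13 (adjusted p = 0.275). Of 4 adaptors that load the receptors at the Golgi, 2 were higher, *Gga3* at 0.47 (adjusted p = 1.10e-06) and *Ap1m1* at 0.26 (adjusted p = 0.0114, and 0.184 with the chromosome median removed). The others, *Gga1* at -0.04 (adjusted p = 0.817) and *Gga2* at 0.04 (adjusted p = 0.707), did not pass. *Gnptg*, *Vps29*, *Gga1* and *Gga2* were named after their values were seen. *Gnptab* and *Vps26a* lie on chromosome 10, whose median was -0.35. With the chromosome medians removed, 2 of the 7 remained past the threshold, *Gga3* at 0.31 (adjusted p = 0.00306) and *Vps26a* at -0.25 (adjusted p = 0.0218).

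The lysosomal hydrolases, the cargo that the receptors carry, were all 28 expressed. Of these, 8 were lower and 4 higher, beside 15.8% and 16.4% over all genes, with a median log2 fold change of -0.08. The 12 became 7 without WT replicate 1 or KO-labelled replicate 1 and 6 without KO-labelled replicate 2, and with the chromosome medians removed 7 were lower and 2 higher. Their summed level was 360 to 363 RPKM in WT and 347 to 357 RPKM in the KO-labelled libraries. *Ctsc*, the protease that activates granule serine proteases, was the one called at 2-fold. It had 416.3 and 425.8 normalized counts in WT and 155 and 171.4 in the KO-labelled libraries, a log2 fold change of -1.37 ± 0.21 (SE, adjusted p = 8.35e-10). *Idua*, which degrades heparan and dermatan sulfate, was at -1.01 (adjusted p = 0.00765), and the sialidase *Neu1* at -0.57 (adjusted p = 0.00472).

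In the other direction, *Arsa*, the sulfatase of sulfatide, was at 0.97 (adjusted p = 1.82e-06). *Arsa* shares 18.8% of its exonic bases with *C230037L18Rik* on the opposite strand, so its count is uncertain. The peptidase *Tpp1* was at 0.35 (adjusted p = 0.00369) and *Ctsa*, the protective protein of *Neu1*, at 0.24 (adjusted p = 0.025, 10.5% of exonic bases shared with *Pltp*). With the chromosome median removed, the adjusted p was 0.0518 for *Tpp1* and 0.291 for *Ctsa*.

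Of the insulin-like growth factor (IGF) genes, the other partners of *Igf2r*, 4 binding proteins passed the DESeq2 test and no ligand or receptor did, while edgeR passed 6 genes, *Igf2* among them. Of 13 genes, 9 could be tested, and 3 were lower and 1 higher, beside 15.8% and 16.4% over all genes, with a median log2 fold change of -0.65. *Igf2*, the ligand that *Igf2r* clears and itself an imprinted gene, had 54.36 and 88.21 normalized counts in WT and 34.83 and 45.39 in the KO-labelled libraries. Per exon length, the *Igf2* level was 0.27 ± 0.0939 RPKM in WT and 0.152 ± 0.0265 RPKM in the KO-labelled libraries (SD, n = 2 each). Its log2 fold change of -0.83 ± 0.47 (SE) had an adjusted p of 0.183 in DESeq2 and 0.0477 in edgeR. *Igf1r*, the signalling receptor for IGF2, had 780.9 and 725.3 normalized counts in WT and 777.6 and 799.8 in the KO-labelled libraries, with overlapping groups. Its log2 fold change was 0.07, with a 95% interval of -0.20 to 0.33 (adjusted p = 0.768). The insulin receptor gene *Insr*, named after its values were seen, was at -0.28 (adjusted p = 0.0821) and at -0.39 with the chromosome median removed (adjusted p = 0.0139). *Ins2*, next to *Igf2*, had 0 counts in every library.

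*Igfbp7*, a secreted binding protein of basement membranes, had 229.4 and 228.7 normalized counts in WT and 52.24 and 52.43 in the KO-labelled libraries, a log2 fold change of -2.13 ± 0.30 (SE, adjusted p = 2.33e-11). *Igfbp3*, the main carrier of IGFs in serum, fell by 1.08 on the log2 scale (adjusted p = 4.21e-10), and both were called at 2-fold. *Igfbp2*, the most abundant of the binding proteins here per exon length at 152 ± 4.45 RPKM in WT and 97.1 ± 4.12 RPKM in the KO-labelled libraries, fell by 0.65 (adjusted p = 5.99e-17). *Igfbp4* was higher at 0.76 (adjusted p = 0.00293), with an adjusted p of 0.0556 to 0.141 without any 1 library, which left 3 genes of the list past the threshold in place of 4. Basement membrane genes among the endoderm markers were lower in the same libraries, *Col4a1* at -1.28 (adjusted p = 7.89e-14) and *Lama1* at -1.63 (adjusted p = 6.80e-62), and their part in the binding protein values was not tested.

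The other organic cation and carnitine transporters, the family of *Slc22a2* and *Slc22a3*, did not pass the test. Of 9 genes, 6 could be tested, and 0 were lower and 0 higher in DESeq2, also at an unadjusted p under 0.05, while edgeR gave 0 lower and 1 higher. The gene that edgeR called was *Slc47a1*, a proton-coupled exporter of organic cations, named because it makes up that count. It had 236 and 237.4 normalized counts in WT and 314.3 and 312.2 in the KO-labelled libraries, a log2 fold change of 0.40 (DESeq2 adjusted p = 0.133). The summed level of the 9 genes was 5.98 to 6.44 RPKM in WT and 6.29 to 7.01 RPKM in the KO-labelled libraries.

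The factors known to keep the methylation of imprint control elements, or to carry out silencing by *Airn*, were all 14 expressed. Of these, 2 were lower and 8 higher, beside 15.8% and 16.4% over all genes, with a median log2 fold change of 0.21. The 10 became 5 without KO-labelled replicate 1, and with the chromosome medians removed 2 were lower and 5 higher. *Zfp57*, the zinc finger protein that binds methylated imprint control elements, had 10300 and 9886 normalized counts in WT and 11940 and 11410 in the KO-labelled libraries (log2 fold change 0.21, adjusted p = 0.0106). Its partner *Trim28* had 48880 and 55430 in WT and 67360 and 57120 in the KO-labelled libraries (0.26, adjusted p = 0.0129, and 0.169 with the chromosome median removed). *Setdb1*, the H3K9 methyltransferase that TRIM28 recruits, was at 0.53 (adjusted p = 1.23e-12), and *Dnmt1*, the maintenance DNA methyltransferase, at 0.33 (adjusted p = 1.55e-05). *Dppa3*, which protects maternal methylation after fertilisation, was lower at -0.55 (adjusted p = 4.72e-09).

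Of the silencing factors, *Ehmt2*, the H3K9 methyltransferase G9a that *Airn* uses at *Slc22a3* in placenta, was lower. It had 7070 and 7810 normalized counts in WT and 5915 and 5655 in the KO-labelled libraries, a log2 fold change of -0.36 ± 0.08 (SE, adjusted p = 3.99e-05). *Ezh2*, the H3K27 methyltransferase of Polycomb repressive complex 2, showed the largest difference of the 14, with 4326 and 4389 normalized counts in WT and 8464 and 8360 in the KO-labelled libraries (0.95 ± 0.07, SE, adjusted p = 5.27e-37). *Suz12*, a second subunit of that complex, was at 0.65 (adjusted p = 0.00589, and 0.0584 with the chromosome median removed). *Hnrnpk*, an RNA-binding protein that links noncoding RNAs to Polycomb, was at 0.10 (adjusted p = 0.226). In all 4 libraries the RNAs of these factors were thus present beside an *Airn* count of 0 or 1.

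**Figure D4:**
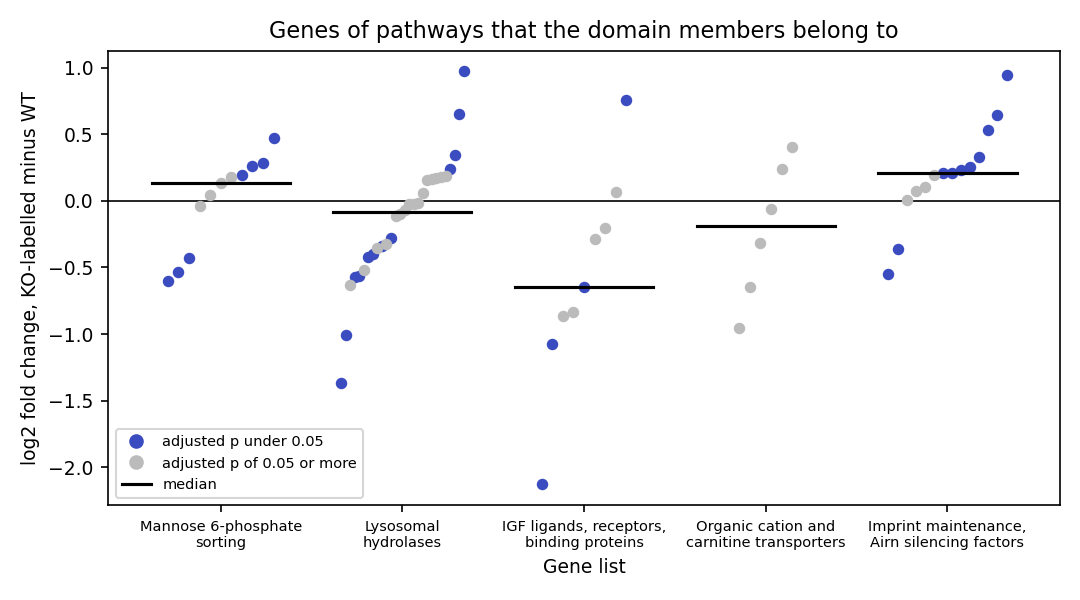
log2 fold change (y axis, KO-labelled minus WT) of each tested gene in 5 lists (x axis), sorted within a list, with the median as a bar. Blue points have a DESeq2 adjusted p under 0.05; the medians are 0.13, -0.08, -0.65, -0.19 and 0.21 from left to right.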

How the data were processed

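RNA-seq of 4 mESC libraries was used, 2 WT and 2 *Spen* KO clone 2, grouped by their labels. The deposited values are raw counts per gene. The authors depleted ribosomal RNA, mapped paired 75-base reads to mm9 with STAR and used featureCounts with GENCODE vM1. The submitters' notes also name bcl2fastq and DESeq2. The labels name a NextSeq and the methods a HiSeq. Tool versions, the strand setting and the treatment of multi-mapping reads are not given in the sources used here, so overlapping and duplicated genes are uncertain.

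Groups were compared over the whole table with the Wald test of DESeq2 1.42.0 (R 4.3.3) and Benjamini-Hochberg adjustment. Calls needed a 2-fold change and an adjusted p under 0.001, the study's thresholds, and described as lower or higher at an adjusted p under 0.05. The script was tested on simulated data, where the looser threshold let through more false calls than its nominal share. RPKM was computed as counts per kb of exon per 1000000 counts, with exons and sequence from GENCODE vM1 and NCBIM37, in which every gene ID was found. The limit for a count of 0 was 3 counts, and intervals are exact Poisson intervals at 95%. They cover counting error only, since reads carry no molecular identifiers. Total counts of 36667685 to 61908422 set these limits, and the shallower WT libraries have the wider ones.

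Alternatives were size factors from TMM or the upper quartile, a filter of 10 counts in 2 libraries, edgeR 4.0.16, a replicate block, removal of each chromosome's median log2 fold change and leaving out each library. Replicate numbers gave no sign of pairing (correlation of deviations -0.018 over 13306 genes), which does not settle whether libraries were prepared in pairs. The members and gene lists were chosen with earlier results of these data known, so no list was tested. Genes were named by rule: the members, *Spen*, neighbours within 250 kb with a mean of at least 10 normalized counts, *Mas1* and *Plg*, up to 4 genes per list and direction with the largest differences (mean of at least 50), a few fixed partners, and the 3 genes most like *Igf2r*. 2 list symbols were matched through older names (*Tcfcp2l1*, *Tcfap2c*). Some genes that this rule names are not reported here.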

Additional observations from a re-analysis of the deposited data

How the results depend on the processing

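The *Igf2r* log2 fold change kept its sign under all alternatives run, at -0.26 to -0.21 and past an adjusted p of 0.05 with TMM or upper-quartile factors, the count filter and edgeR (adjusted p 0.0054 to 0.0317). It was not past it with the replicate block (-0.25, adjusted p = 0.0891), with the chromosome median removed (-0.11, 0.334), or with any 1 library left out (-0.29 to -0.19, adjusted p 0.0552 to 0.222, the lone library being assumed to vary like the other group). No fold change could be given for *Airn*, *Slc22a2* or *Slc22a3*, which were at or under 3 counts. No sign of pairing by replicate number was seen, and with the block, imprint factors past the threshold went from 10 to 5. Over all genes, 241 were called higher and 558 lower, and leaving out a library gave 137 to 185 and 332 to 404. An adjusted p under 0.05 gave 371 higher and 852 lower with the 2-fold minimum, and 2909 and 2805 without it. The 3 neighbours became 6 with the count filter, 7 in edgeR, 1 within 500 kb, 5 within 2 Mb, and 1 to 2 without a library (1 without WT replicate 2 or KO-labelled replicate 1). The 7 sorting genes became 2 with chromosome medians removed and 4 without any 1 library. Without a library, the 12 hydrolases became 6 to 8 and the 10 imprint factors 5 to 9, and edgeR gave 1 cation transporter in place of 0. Signs turned for *Mrpl18* (0.0883 with the chromosome median removed, -0.0898 to 0.0048 without a library), *Tcp1* (0.0158 with upper-quartile factors, 0.114 with the chromosome median removed, -0.0751 to 0.0434 without a library), *Snora20* (-0.304 to 0.588 without a library) and, with the chromosome median removed, *Igf1r* (-0.0269) and *Gga2* (-0.05), none of which passed the test. Of 578 values for the 58 genes named by rule, *Gga2* not among them, 483 kept direction and side of the threshold, 81 lost the threshold, 6 gained it and 8 turned. The causes were not tested. Depth limits what can be said of the 3 members at or near 0 counts.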
